A study of Mus musculus with 15 samples.

Results

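The transcriptome of the unperturbed mouse heart at E14.5, in mid-gestation, was described from 7 RNA sequencing libraries labelled WT. They were chosen by that label alone, from a series of 15 libraries. The other 8, made from hearts with a changed Adamts16 allele, were not analysed here. Each WT library was made from heart tissue with no treatment and no transgene named in the labels. The strain, the litter and whether a library held 1 heart or several are not stated, so each n and SD below counts libraries. Levels are given in FPKM (fragments scaled per kilobase of a gene's length and per 1e6 fragments sequenced), which allows genes of different length to be set side by side within a library.

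At this stage the mouse heart has its chambers divided and is pumping, while its muscle cells still divide. Fetal heart muscle is known to express contractile and metabolic gene variants in other proportions than adult muscle, and to rely on glucose and lactate more than on fatty acids. The tissue also holds endothelium, endocardium, epicardium, fibroblasts, valve mesenchyme, macrophages and blood. The red cells of the fetus come first from the yolk sac, with embryonic globins, and later from the liver, with adult globins. In bulk RNA, fewer cells of a type and less RNA per cell cannot be told apart, so marker levels below are not cell numbers.

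The depth implied by the low values was 41.9 to 55.9 M fragments per library (M, 1e6). Between 12877 and 13539 genes reached 1 FPKM in a library, and 12059 did so in all 7. Without WT 7 the highest number in a library was 13195. Pearson correlations between libraries on the log2(FPKM + 0.5) scale lay between 0.945 (WT 4 with WT 7) and 0.984 over the 13172 genes whose mean reached 1 FPKM. WT 7 stood apart most often. By a Dixon gap test of 1 library against the other 6 (gap over range above the 95% critical value), 798 of these genes, 6.06%, had 1 library apart, where chance gives about 5%. WT 7 was the high library in 307 genes, 2.33% of all, and the low one in 114, while no other library was high in more than 35. Values without WT 7 are given beside some of the results.

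A small set of transcripts held most of the FPKM total. The 10 highest genes of each library held 28.5% ± 2.39 (SD, n = 7) of it, from 24.3% in WT 7 to 30.9% in WT 4, and the 100 highest held 57.4% ± 2.75. The 13 mRNAs of the mitochondrial genome, which encode subunits of the respiratory chain and of ATP synthase, were the leading class with 27.7% ± 3.28 of the total. Their share was 29.3%, 30.7%, 26.9%, 30.2%, 29.8%, 25.3% and 21.7% in WT 1 to WT 7. WT 6 and WT 7 were the lowest. The highest gene of each library was mt-Co1, a cytochrome c oxidase subunit, with 21604, 23624, 19896, 22211, 21667, 18135 and 15028 FPKM in WT 1 to WT 7. It was followed by mt-Cytb (11714 ± 1732), mt-Atp8 (11698 ± 1590) and mt-Nd1 (11198 ± 1531), whose ranges over the libraries overlapped. The lowest of the 13 was mt-Nd3, at 1074 ± 173 FPKM.

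Another 10.8% ± 0.973 of the FPKM total was assigned to 7 unprocessed pseudogenes on chromosome 1, which are copies of mitochondrial genes. In GRCm38 the copy of mt-Co3, Gm28437, lies at chr1:24613189-24613971, and its value was 0.999 to 1.003 times that of mt-Co3 in each library. Gm28661 was at 1.004 to 1.007 times mt-Co2, Gm10222 at 1.001 to 1.005 times mt-Nd4l, Gm28438 at 0.955 to 0.988 times mt-Nd3, and Gm10925 at 1.08 to 1.09 times mt-Atp6. For these 5, the values of the copy and of its mitochondrial gene cannot be told apart here. The other two, Gm29216 (6727 ± 1193 FPKM) and Gm28439 (3416 ± 660.4 FPKM), were not set against a single gene. Because these genes are short, the share of fragments differed from the share of FPKM. Weighted by exonic length, the mitochondrial mRNAs held 11.6% ± 1.51 and the 24 sarcomere genes 5.77% ± 0.52.

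**Figure D1:**
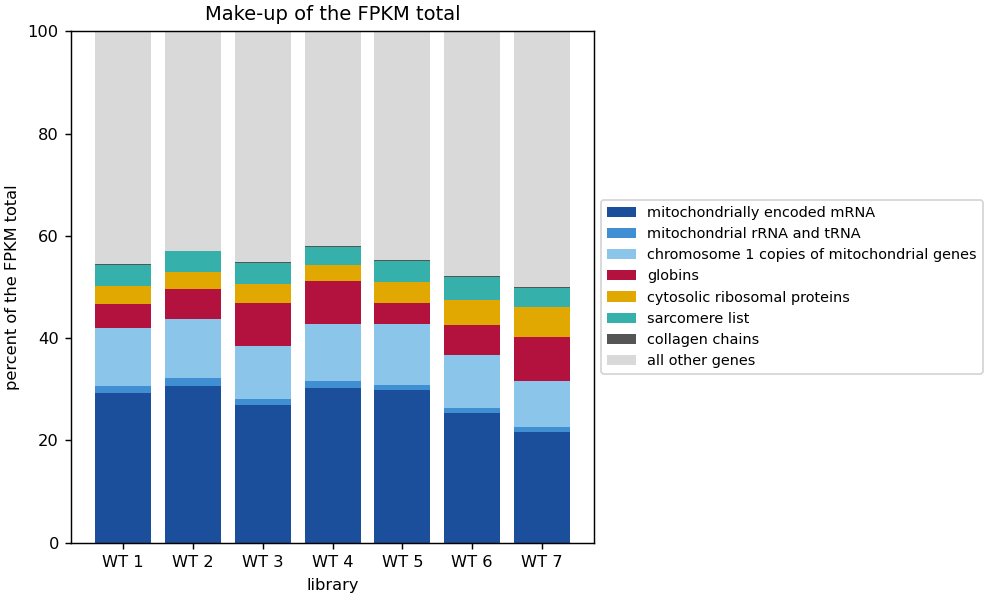
Share of the FPKM total (percent, vertical axis) held by classes of genes in each of the 7 WT libraries (1 bar each). Mitochondrially encoded mRNA ranges from 21.7% in WT 7 to 30.7% in WT 2, and globins from 4.12% in WT 5 to 8.68% in WT 7.

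By their means over the libraries, globins of red cells led the nuclear genes. The 7 globin genes held 6.55% ± 1.90 of the FPKM total, 4.67%, 5.77%, 8.34%, 8.39%, 4.12%, 5.85% and 8.68% in WT 1 to WT 7. In WT 5 they were behind the sarcomere genes (4.25%), and the heart actin gene Actc1 exceeded each of them. The adult alpha globin Hba-a2 was at 5076, 6835, 9475, 9509, 4019, 5779 and 7383 FPKM, and its near-identical neighbour Hba-a1 at 6688 ± 1992 FPKM. Fragments may be split between these 2 genes by the counting, as between the adult beta globins Hbb-bs (6699 ± 2424 FPKM) and Hbb-bt (3564 ± 1199 FPKM). The embryonic beta globin Hbb-y was at 1149, 1244, 1858 and 2073 FPKM in WT 1 to WT 4 and at 239, 134 and 413 FPKM in WT 5, WT 6 and WT 7. The embryonic alpha globin Hba-x was at 156, 167, 238, 258, 28.7, 20.6 and 38.0 FPKM. WT 5, WT 6 and WT 7 were the 3 low libraries for both. Embryonic genes made up 13.8% to 16.3% of beta globin FPKM in WT 1 to WT 4, and 3.17%, 1.24% and 2.44% in WT 5, WT 6 and WT 7. The alpha to beta total ran from 0.899 in WT 7 to 1.46 in WT 2. Apart from the globins, the erythroid list was led by Alas2, the first enzyme of heme synthesis in red cells (68.0 ± 19.96 FPKM), and by Slc4a1 (11.3 ± 2.90), the anion exchanger of the red cell membrane.

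The promoters of an adult and an embryonic gene of each globin cluster are printed because the ratio of these genes varied widely between the libraries. Those of Actc1 and Nppa are printed as the leading contractile gene and the leading hormone gene of the heart. Each run is the 100 bases before the RefSeq start on GRCm38.p6, 5′ to 3′ on the gene's strand, with capitals at matches on either strand. The letters searched were the TATA box TATAAA, the CCAAT box, CACCC (bound by factors such as erythroid Klf1), GATAA (bound by GATA factors) and CATTCC (bound by TEAD factors).
Hbb-bt, minus strand, chr7:103813924-103814023: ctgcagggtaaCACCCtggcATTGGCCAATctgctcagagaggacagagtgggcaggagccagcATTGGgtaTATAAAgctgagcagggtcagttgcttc
Hbb-y, minus strand, chr7:103853208-103853307: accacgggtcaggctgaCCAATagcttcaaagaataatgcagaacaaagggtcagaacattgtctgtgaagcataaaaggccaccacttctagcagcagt
Hba-a1, plus strand, chr11:32283572-32283671: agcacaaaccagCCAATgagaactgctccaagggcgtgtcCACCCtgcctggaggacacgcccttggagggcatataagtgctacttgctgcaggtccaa
Hba-x, plus strand, chr11:32276500-32276599: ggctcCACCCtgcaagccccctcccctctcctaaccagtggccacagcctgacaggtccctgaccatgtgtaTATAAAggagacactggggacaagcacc
Actc1, minus strand, chr2:114052876-114052975: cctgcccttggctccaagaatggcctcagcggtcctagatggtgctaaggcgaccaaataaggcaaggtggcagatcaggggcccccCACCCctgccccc
Nppa, plus strand, chr4:148000622-148000721: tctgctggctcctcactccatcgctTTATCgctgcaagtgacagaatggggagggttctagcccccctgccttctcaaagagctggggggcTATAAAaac

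TATAAA lay 28 bases before the start of both Hbb-bt and Hba-x, and CCAAT 83 and 88 bases before the start of Hbb-y and Hba-a1. In Hbb-bt, CCAAT matched on both strands in adjoining positions, 80 and 75 bases before the start. The RefSeq start lies 673 bases from the GENCODE vM21 start for Actc1, 200 for Hba-x, 161 for Hba-a1 and 73 for Hbb-bt, so these runs may not precede every transcript. In windows of 250 bases before the start, GATAA was found in 6 of 6 matched globin genes, against 22.9% of all 27025 windows. CATTCC was found in 9 of 21 matched sarcomere genes, against 12.6% of all windows. CCAAT was found in 14 of 16 matched cell cycle genes, against 34.3% of all windows. Among protein-coding genes of at least 100 FPKM, GATAA was found in 28.1%, CATTCC in 13.5% and CCAAT in 39.5% of windows. None of the printed globin runs of 100 bases holds GATAA. In other combinations, GATAA was found in 28.6% of matched sarcomere genes, near its share among genes of at least 100 FPKM. CACCC was found in 43.8% of matched cell cycle genes, against 51.4% of all windows. The matches named are a part of the combinations of gene sets and letters searched, and they were not tested. They describe letters only.

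Contractile genes of heart muscle followed. Actc1, the cardiac alpha actin, was at 4711, 5076, 5072, 4276, 5313, 5923 and 4440 FPKM in WT 1 to WT 7, the highest of the nuclear protein-coding genes that are not globins. The next muscle genes were the ventricular light chain Myl2 (1682 ± 168 FPKM), the atrial light chain Myl7 (1410 ± 245) and troponin C, Tnnc1 (1393 ± 144). Nppa, which encodes atrial natriuretic peptide, was at 1179, 1125, 1005, 818, 1257, 1151 and 1118 FPKM, lowest in WT 4. Eef1a1, a translation elongation factor of all cells, was at 2592 ± 362 FPKM, between Actc1 and Myl2. The 86 cytosolic ribosomal protein genes held 4.09% ± 0.93 of the FPKM total, from 3.11% in WT 4 to 5.77% in WT 7, and the 24 sarcomere genes held 4.04% ± 0.30. The 44 collagen chains held 0.178% ± 0.01.

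**Figure D2:**
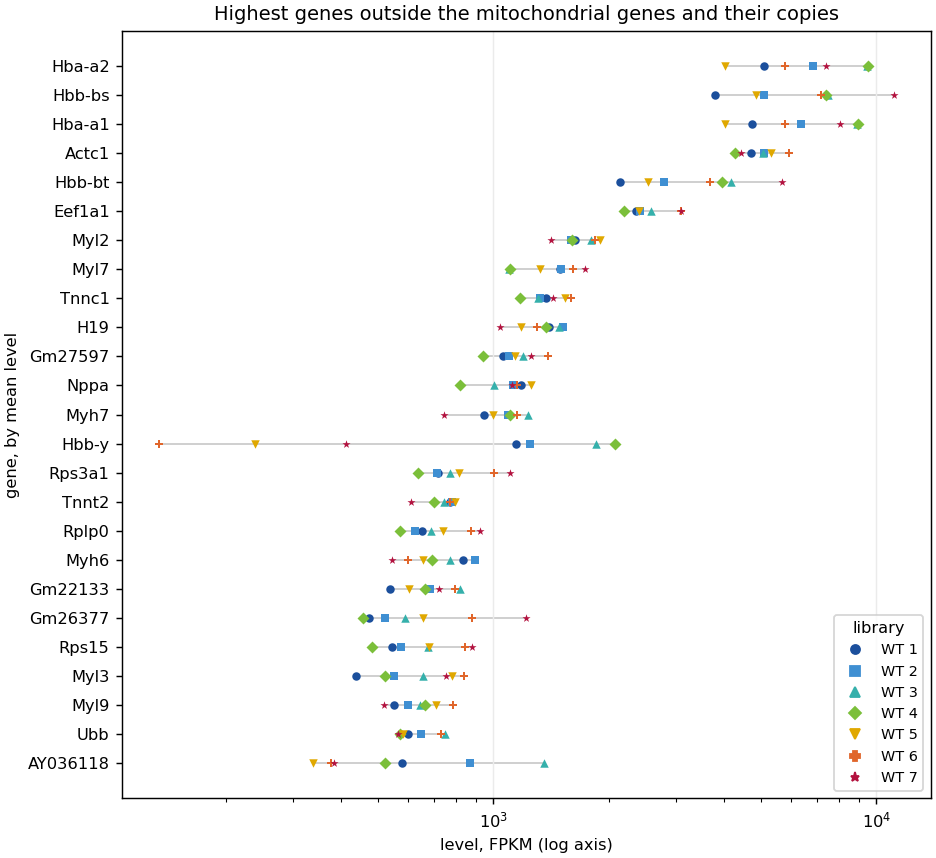
Level in FPKM (horizontal log axis) of the 25 highest genes outside the mitochondrial genes and their chromosome 1 copies, 1 point per WT library and a line over the range. Hbb-y has the widest range, 134 to 2073 FPKM, and Actc1 lies between 4276 and 5923 FPKM.

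Among non-coding genes outside the mitochondrial genome and its copies H19, an imprinted growth-regulating RNA, was highest, at 1395, 1524, 1481, 1372, 1183, 1304 and 1043 FPKM, lowest in WT 7. AY036118, annotated as a lincRNA, was at 631 ± 367 FPKM and highest in WT 3 with 1357 FPKM. Genes annotated as rRNA also held their highest share of the FPKM total in WT 3, 0.101% against 0.0290% to 0.0631% in the others. Whether ribosomal RNA fragments have a part in the AY036118 value was not tested. The 3 other leading non-coding genes are annotated as microRNA genes of 80 to 109 bases that lie inside protein-coding genes on the same strand. Gm27597 lies inside Rpl19, Gm22133 inside Ftl1 and Gm26377 inside Eef1a1. Their values (1153 ± 144, 688 ± 99.3 and 685 ± 276 FPKM) cannot be told apart from fragments of their hosts.

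Which of a set of related genes dominates was asked with 34 pairs, mostly a heart or muscle gene and its relative. The pairs are separate genes, not splice forms. The log2 ratio within each library was tested with a two-sided exact sign-flip permutation test over all sign patterns of the 7 libraries, whose smallest p is 0.0156, with Benjamini-Hochberg adjustment over the 34 pairs (smallest adjusted p 0.0171). In 31 pairs 1 gene was the higher in all 7 libraries (exact adjusted p = 0.0171 for each). The first-named gene was higher in 24 and the second in 7. The ratio was more than 4-fold in 19 pairs and less than 2-fold in 8. A pair reached the smallest p once its order held in every library, whatever the size of the ratio. The share of unrelated gene pairs that the same test would call was not computed. The count of called pairs therefore cannot be read as particular to these genes. The level of each gene rests on the gene length that the authors used, which is not given in the sources used here.

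**Figure D3:**
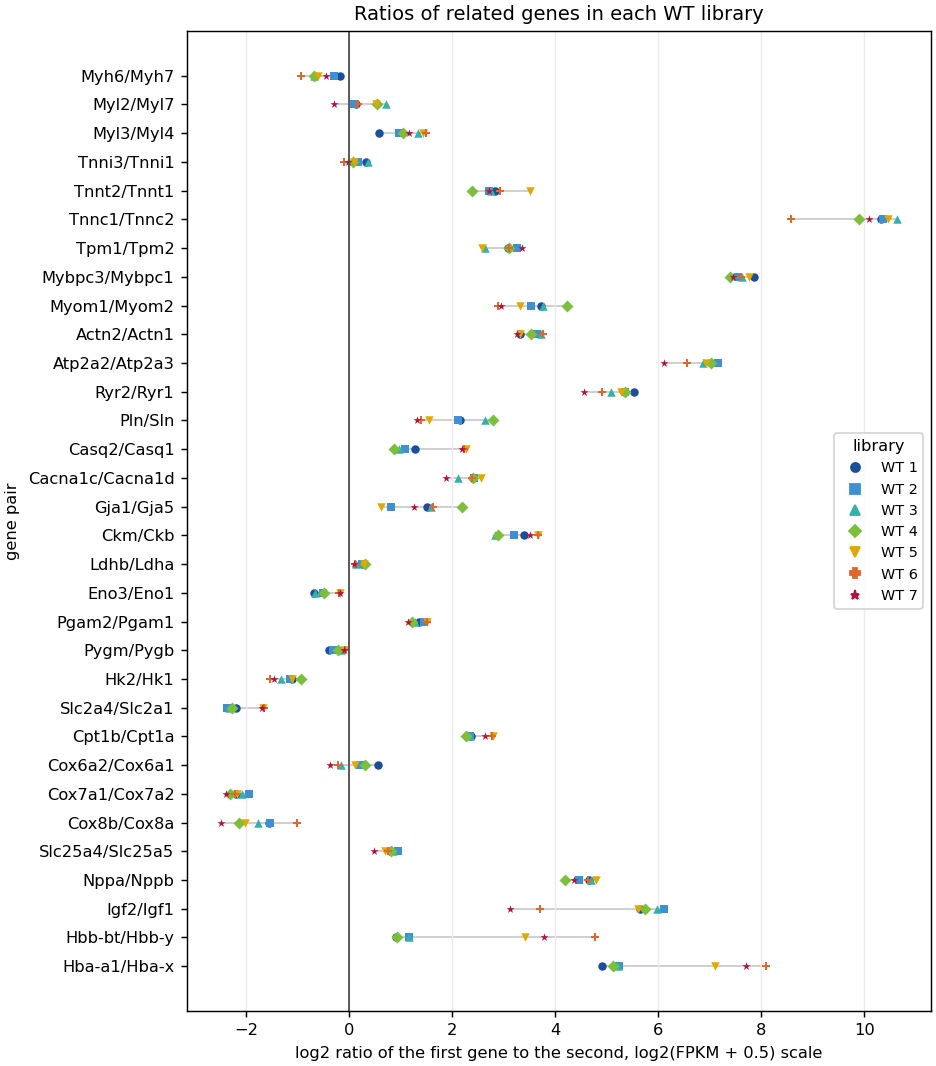
Log2 ratio of the first to the second gene of 32 of the pairs (horizontal axis, log2(FPKM + 0.5) scale), 1 point per WT library. Points right of the vertical line at 0 mean that the first gene was higher, and the globin and Igf2/Igf1 pairs have the widest ranges.

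In the thick filament, the 2 heart myosin heavy chains were expressed at levels of the same order. Myh7, the slow beta chain that dominates the fetal mouse ventricle, was at 943, 1092, 1233, 1104, 997, 1150 and 741 FPKM. Myh6, the fast alpha chain, was at 835, 894, 770, 691, 657, 599 and 544 FPKM. Myh7 was higher in every library, by 0.54 ± 0.26 (log2, SD, n = 7), and Myh6 made up 34.3% (WT 6) to 47.0% (WT 1) of the sum. Their ranges over the libraries overlapped, and Myh6 and Myh7 are neighbours on chromosome 14 with similar sequence, so fragments may be split between them. Myl2 and Myl7, the regulatory light chains of ventricle and atrium, differed by 0.27 ± 0.34 (exact p = 0.109, adjusted p = 0.113), with Myl2 higher in 6 of 7 libraries and Myl7 higher in WT 7. Without WT 7 the difference was 0.36 and the exact adjusted p = 0.0332. Leaving out the only library of the other order fixed the exact p at its smallest value for 6 libraries, 0.03125. This p therefore does not add to the result with all 7. Myl3, the ventricular essential light chain, was above the atrial and fetal Myl4 by 1.15 ± 0.31. Mybpc3, the cardiac myosin binding protein C, was above the slow skeletal Mybpc1 by 7.61 ± 0.16.

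In the thin filament, cardiac genes dominated except in troponin I. Tnnt2 was above the slow skeletal Tnnt1 by 2.84 ± 0.34, and Tpm1 above Tpm2 by 3.02 ± 0.30. Tnnc1 exceeded the fast skeletal Tnnc2 by 10.05 ± 0.70, and Tnnc2 was at 3.70 FPKM in WT 6 and 0.325 to 0.812 FPKM in the other libraries. Tnni3, the adult cardiac troponin I, was at 382 ± 38.4 FPKM beside 351 ± 60.1 FPKM for Tnni1, the fetal and slow skeletal form. This pair was not called (0.13 ± 0.17, exact p = 0.109, adjusted p = 0.113), with Tnni3 higher in 5 of 7 libraries.

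For calcium and ion transport, the first-named heart gene was higher in 7 of 7 pairs. Atp2a2, the calcium pump of the sarcoplasmic reticulum, exceeded Atp2a3 by 6.81 ± 0.37, and the release channel Ryr2 (19.1 ± 4.02 FPKM) exceeded Ryr1 by 5.15 ± 0.33. Ryr1 was near 0, so that ratio is set partly by the pseudocount of 0.5. Casq2, the cardiac calcium buffer calsequestrin, was above its skeletal relative Casq1 by 1.27, 1.09, 0.97 and 0.88 in WT 1 to WT 4 and by 2.27, 2.24 and 2.19 in WT 5 to WT 7. Casq1 was at 83.6, 97.5, 97.3, 92.8, 54.3, 50.2 and 40.2 FPKM, so the 3 libraries with the larger ratio had the lower Casq1. Pln, the brake on the calcium pump, was above the atrial Sln by 1.998 ± 0.60, and Gja1, connexin 43, was above Gja5, connexin 40, by 1.37 ± 0.53.

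In energy metabolism the direction was mixed, with the first-named gene higher in 5 of 12 pairs, the second-named gene higher in 6, and 1 not called. Ckm, the muscle creatine kinase, exceeded the brain form Ckb by 3.31 ± 0.35, and Cpt1b, the muscle carnitine palmitoyltransferase, exceeded the liver form Cpt1a by 2.51 ± 0.22. Ldhb, the heart subunit of lactate dehydrogenase, was above Ldha, the muscle subunit, by only 0.20 ± 0.09, and Pgam2 was above Pgam1 by 1.36 ± 0.15. The glucose transporter Slc2a1 was above the insulin-responsive Slc2a4 by 2.03 ± 0.33, at 31.0 ± 7.65 against 7.03 FPKM. Hexokinase Hk1 was above Hk2 by 1.23 ± 0.21. Eno1 was above the muscle enolase Eno3 by 0.41 ± 0.23, and Pygb above the muscle phosphorylase Pygm by 0.19 ± 0.12. For the cytochrome c oxidase subunits, the widely expressed Cox7a2 and Cox8a were above the muscle forms Cox7a1 and Cox8b by 2.18 ± 0.15 and 1.78 ± 0.48. Cox6a2 and Cox6a1 were not called apart (0.07 ± 0.33, exact p = 0.625), and the sign of the mean turned without WT 1.

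Of secreted factors, Nppa exceeded Nppb, which encodes the B-type natriuretic peptide, by 4.54 ± 0.21. Igf2 exceeded Igf1, both insulin-like growth factors, by 5.14 ± 1.19, with 3.72 in WT 6, 3.13 in WT 7 and 5.62 to 6.12 in the others. Igf2 was at 669, 797, 805, 721 and 615 FPKM in WT 1 to WT 5 and at 218 and 175 FPKM in WT 6 and WT 7. The adult globins were above the embryonic ones in every library, Hbb-bt over Hbb-y by 0.90 to 4.78 and Hba-a1 over Hba-x by 4.92 to 8.10.

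The labelled tissue was checked against markers of working cardiomyocytes, and 13 of 13 were at or above 19.1 FPKM in the mean, with a median of 103 FPKM. For scale, 49.5% of 21899 protein-coding genes reached 1 FPKM in all 7 libraries, and 3163 of all 55335 genes reached 10 FPKM in all 7. These shares use lower levels than 19.1 FPKM, and a rule on every library where the markers use the mean. The mean level of the list on the log2(FPKM + 0.5) scale was 7.25, 7.25, 7.16, 7.14, 7.23, 7.15 and 6.83 in WT 1 to WT 7. WT 7 was the lowest for the list and for 10 of its 13 members. How many of all genes were lowest or highest in WT 7 was not counted. This count, and those of the same kind below, therefore have no share beside them. Ttn, the giant spring protein of the sarcomere, was at 55.0, 50.1, 42.1, 29.7, 48.9, 29.3 and 13.9 FPKM. WT 7 was the lowest, and WT 4 and WT 6 were also low. Levels of other genes also moved with gene length: genes of 8 kb or more deviated from their own means by a median of 0.11, -0.00338, -0.04, 0.10, 0.01, -0.14 and -0.01 (log2) in WT 1 to WT 7. Thus WT 6 was low for long genes, while WT 7 was near their mean and WT 4 above it. Shorter genes of WT 7 lay above their own means, by a median of 0.07 at 4 to 8 kb and 0.32 under 1 kb. Beside these, the long genes of WT 7 were low as well. The part of gene length in the level of Ttn was not tested.

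Markers of both chambers were present in every library. All 10 ventricular markers reached 1 FPKM, led by Myl2, Myl3 (647 ± 149 FPKM), Lbh (181 ± 23.8) and Fhl2 (108 ± 15.5), and the transcription factors Hey2 (24.9 ± 3.41) and Irx4 (19.8 ± 3.68) were among them. All 12 atrial markers also reached 1 FPKM, among them Myl4 (286 ± 27.9), the peptide-amidating enzyme Pam (94.5 ± 10.7) and the growth factor Bmp10 (34.4 ± 9.35). The level of the atrial list ran from 4.73 to 5.04 and that of the ventricular list from 5.78 to 6.11. Of 12 pacemaker and conduction markers 9 reached 1 FPKM. The pacemaker channel Hcn4 was at 3.69 ± 0.62 FPKM and its regulator Shox2 at 2.29 ± 0.50, while Cntn2 was below 0.1 FPKM.

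Stromal and vessel markers were present in every library. The fibroblast list had a mean level of 5.04 ± 0.18, led by the collagen chains Col3a1 (135 ± 20.8 FPKM) and Col1a1 (117 ± 18.5) and the matrix protein Postn (94.8 ± 7.18). All 12 endothelial markers reached 1 FPKM, led by Cdh5, the vascular cadherin (50.5 ± 14.51), the angiopoietin receptor Tek (34.6 ± 5.35) and Pecam1 (31.6 ± 5.18). The endothelial list was at 4.02, 4.04, 4.04, 4.04, 3.94, 3.80 and 3.71 in WT 1 to WT 7. WT 7 was lowest for 8 of its 12 genes. The endocardial list was led by Plvap (19.2 ± 4.56) and Npr3 (17.7 ± 2.63), and Nfatc1, a regulator of valve endocardium, was at 3.47 ± 0.54. The coronary and vascular list was led by the fatty acid carriers Cd36 (43.4 ± 5.70) and Fabp4 (26.3 ± 4.82). Of its 8 genes 7 reached 1 FPKM in the mean, and the lowest was at 0.396 FPKM.

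Markers of epicardium, mural cells and valve mesenchyme were also present. All 12 epicardial markers reached 1 FPKM, with the uroplakin Upk3b at 27.9 ± 3.24 FPKM, the retinoic acid enzyme Aldh1a2 at 19.2 ± 4.33 and Wt1 at 3.86 ± 0.90. The epicardial list was at 3.57, 3.63, 3.68, 3.42, 3.51, 3.95 and 4.24 in WT 1 to WT 7. Of its 12 genes 8 were highest in WT 7. The keratins of this list are shared with other epithelia. Krt18 was at 11.1, 11.8, 14.46, 10.4, 8.58, 15.8 and 52.7 FPKM, and WT 7 stood far above the others, as it did for Krt8 (33.8 FPKM against 3.88 to 12.8 FPKM). Smooth muscle actin Acta2 was at 514 ± 82 FPKM, but it is also expressed by immature heart muscle. Myh11, the smooth muscle myosin, was at only 1.25, 0.657, 2.27, 1.03, 2.32, 3.86 and 6.04 FPKM. Of 12 valve markers 10 reached 1 FPKM in the mean, and the lowest was at 0.389 FPKM. Among them Sox9, a regulator of cushion mesenchyme, was at 2.54 ± 0.34 FPKM, Scx at 1.23 ± 0.18 and Twist1 at 2.30 ± 0.42.

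Immune and nerve markers were low. The macrophage list was led by the complement genes C1qb (11.8 ± 3.55 FPKM) and C1qa (7.90 ± 2.28), with the receptor Csf1r at 5.35 ± 0.32, and 11 of its 12 genes reached 1 FPKM. Of 10 megakaryocyte and platelet markers 3 reached 1 FPKM. Of 12 cardiac neuron markers 2 did, Tubb3 and Hand2, the second of which is also a heart muscle factor. Of 10 neural crest and Schwann cell markers 5 did, led by Ednrb (13.7 ± 3.09 FPKM), while Sox10 was at 0.180 ± 0.105 FPKM. The gene of the erythroid chaperone AHSP could not be matched, so 16 of 17 erythroid genes were measured.

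**Figure D4:**
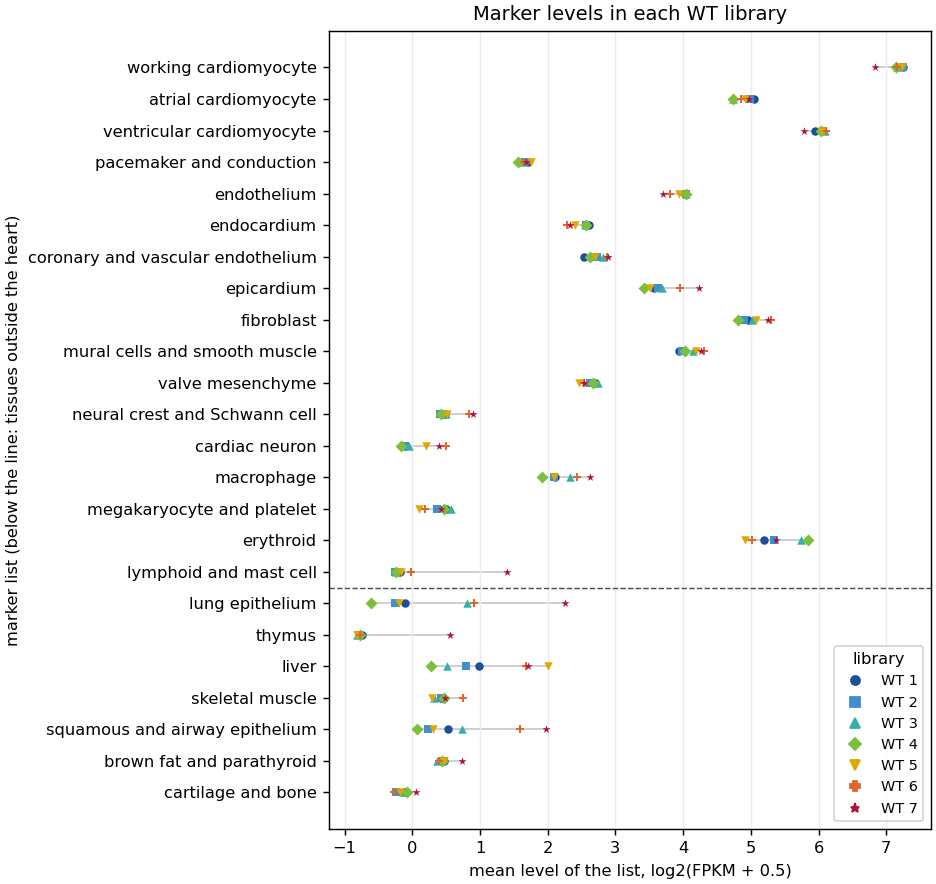
Mean level of each marker list, log2(FPKM + 0.5) (horizontal axis), 1 point per WT library. Lists above the dashed line are cell types of the heart and blood, and those below it are tissues outside the heart. WT 7 lies far to the right for thymus, for lymphoid and mast cells and for lung epithelium.

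Markers of tissues that adjoin the heart varied most between libraries. Of the 32 lists, 5 had a range over 1 on the log2 scale: lung epithelium, thymus, liver, squamous and airway epithelium, and lymphoid and mast cells. Without WT 7 the number was 3. Rag1 is in both the thymus list and the lymphoid and mast cell list. Epcam is in both the lung list and the squamous and airway list, so these lists are not separate observations. The range was under 0.5 in 23 lists, among them all 8 lists of gene programs. The median SD of a member was 0.83 in the lung list and 0.65 in the liver list, against 0.20 in the sarcomere list and 0.17 over all genes that reached 1 FPKM.

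The lung list was at -0.11, -0.26, 0.80, -0.61, -0.19, 0.91 and 2.25 in WT 1 to WT 7, and its summed level ran from 4.15 FPKM in WT 4 to 133 FPKM in WT 7. Surfactant protein gene Sftpc was at 10.04 FPKM in WT 3 and 71.6 FPKM in WT 7, and at or below 0.294 FPKM in the other 5. Scgb3a2, a secretoglobin of the airway, was at 54.6 FPKM in WT 6 and 32.4 FPKM in WT 7, and at or below 2.54 FPKM elsewhere. Nkx2-1, the lung and thyroid regulator, was at 5.33 FPKM in WT 7 and 2.24 FPKM in WT 3. Scgb1a1 was listed at 0 in all 7, and 5 of the 10 lung genes had a mean of at least 1 FPKM.

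The thymus list was at 0.55 in WT 7 and between -0.82 and -0.74 in the other 6 libraries, and 9 of its 10 genes were highest in WT 7. Its summed level was 16.3 FPKM in WT 7 and 0.989 to 1.75 FPKM in the others. Foxn1, the regulator of thymic epithelium, was at 1.07 FPKM in WT 7 and listed at 0 in 5 libraries. Rag1, the recombinase of immature lymphocytes, was at 6.95 FPKM in WT 7 and at or below 0.0219 FPKM in the rest. Cd3g, of the T cell receptor complex, was at 7.66 FPKM in WT 7, and the parathyroid hormone gene Pth was at 4.88 FPKM in WT 7 and listed at 0 in the other 6. The part that these markers have in other values of WT 7 was not tested.

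The liver list was at 0.99, 0.79, 0.52, 0.27, 2.002, 1.67 and 1.71 in WT 1 to WT 7. Alb, serum albumin, was at 6.90, 4.57, 2.92, 1.40, 22.7, 15.7 and 17.0 FPKM, and Afp, its fetal relative, at 4.001, 2.66, 1.58, 0.921, 10.9, 6.83 and 9.17 FPKM. WT 5, WT 6 and WT 7 were the 3 highest for both, as they were the 3 lowest for the embryonic globins. The squamous and airway list was highest in WT 6 (1.60) and WT 7 (1.97), where the epithelial cadherin Cdh1 was at 3.66 and 6.42 FPKM. The skeletal muscle, brown fat and parathyroid, and cartilage and bone lists each had a range under 0.5. Of the 10 skeletal muscle genes 4 reached 1 FPKM in the mean, the highest at 8.09 FPKM. Myod1, Myf5, Myf6 and Pax7, which define skeletal muscle precursors, were the 4 below 0.1 FPKM in the mean.

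The gene programs of the heart were among the more even lists. Of 22 cardiac transcription factors 21 reached 1 FPKM in the mean. The highest was Tbx20 (44.9 ± 9.28 FPKM), then Gata4 (36.7 ± 4.81), Hey2 (24.9 ± 3.41), Mef2d (22.2 ± 3.45), Srf (22.1 ± 3.77), Hand2 (21.3 ± 3.29), Mef2a (20.1 ± 2.66), Irx4 (19.8 ± 3.68) and Nkx2-5 (17.9 ± 3.24). From Hey2 to Nkx2-5 neighbours in this order differed by less than their SDs. Gata6 was at 14.6 ± 1.69 FPKM, Myocd, the coactivator of Srf, at 14.4 ± 4.14, and Tbx5 at 13.5 ± 1.64. Isl1, the factor of second heart field progenitors, was the only one below 1 FPKM in the mean, at 0.736 ± 0.429. The list was lowest in WT 7 (3.08 against 3.23 to 3.40), which was the lowest library for 16 of the 22 genes. The share of all genes that were lowest in WT 7 was not counted.

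All 16 glycolysis genes had a mean above 10 FPKM, led by Gapdh (564 ± 58.3 FPKM), Pgk1 (316 ± 26.6), Ldha (294 ± 32.6) and Aldoa (287 ± 47.2). Of 18 fatty acid oxidation genes 17 reached 1 FPKM, led by Fabp3, the heart fatty acid binding protein (401 ± 60.0), and the dehydrogenase Acadl (167 ± 33.2). The receptor gene Ppara was at 1.47 ± 0.35 FPKM and the uncoupling protein Ucp3 below 0.1. All 20 cell cycle genes were above 1 FPKM, led by the proliferation marker Mki67 (74.3 ± 14.2), the replication clamp Pcna (62.1 ± 9.83) and Top2a (59.0 ± 5.19). The cell cycle list had the smallest SD of the 32 lists after that of the pacemaker list (0.09, level 4.65 to 4.89). WT 7 was the highest library for 11 of the 20 cell cycle genes. The share of all genes that were highest in WT 7 was not counted. Genes of 2 to 4 kb also lay above their own means in WT 7, by a median of 0.13 (log2). Of the imprinted growth genes, Mest (343 ± 45.1 FPKM), Grb10 (219 ± 24.9) and Igf2r (201 ± 48.0) followed H19 and Igf2.

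Over the same 13172 genes, the median SD between libraries was 0.17 on the log2 scale, a median coefficient of variation of 13.5%. Recomputed without WT 7, the median SD was 0.155. With all 7 libraries, the SD was over 0.5 in 598 genes (4.54%) and over 1 in 113. The least variable protein-coding genes of at least 10 FPKM included Cfap20 (11.7 ± 0.19 FPKM), Ap3d1 (13.3 ± 0.29) and Actn1 (20.2 ± 0.44), the last a cytoskeletal crosslinker, with 1.05 to 1.07 times between the lowest and highest library. The other 7 named by this rule were Dcaf7, Lrpprc, Ubfd1, Prepl, Cdc45, Ddx23 and Pak2. At the other end stood Gm45717, Sftpc, Scgb3a2, Eno1b, Hbb-y, Hba-x, Zfp422, Alb, Ccl21a and Gpx1.

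On the first principal component, with 45.1% of the variance, WT 1 to WT 7 lay at -15.6, -16.4, -8.24, -22.0, 3.86, 22.9 and 35.4. No label separates the libraries along it. Without WT 7 it held 41.4%. The short genes moved with it: genes under 1 kb deviated from their own means by a median of -0.14, -0.11, -0.04, -0.28, 0.02, 0.23 and 0.32 (log2) in WT 1 to WT 7, and the part of gene length in this component was not tested. The genes with the most positive weights, which are higher toward WT 7, were Scgb3a2, Sftpc, Ccl21a, Alb, Krt8, Eno1b, Ogn, Mgp, Krt18 and Gstp1. The matrix gene Mgp was at 45.5, 48.2, 53.5, 33.6, 80.0, 108 and 125 FPKM, and the small proteoglycan Ogn at 18.1, 20.1, 19.9, 18.6, 30.6, 59.8 and 55.8 FPKM. By the same ranking, the genes with the most negative weights were Gm45717, Hba-x, Hbb-y, Igf2, Hbb-bh1, Hspg2, Nup62, Alpk2, Ttn and Casq1. Hspg2, which encodes the basement membrane proteoglycan perlecan, was at 44.9, 44.1, 46.6, 51.1, 34.0, 22.6 and 17.2 FPKM. WT 5, WT 6 and WT 7 were the 3 lowest libraries for Hspg2, Casq1, Hbb-y and Hba-x.

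A few genes had 2 separate levels rather than a continuous spread. Of 7005 genes whose mean reached 5 FPKM, 26, or 0.371%, split the libraries into 2 sets of at least 2, with a gap of at least 1 on the log2 scale and a range of at most 0.5 within each set. These genes fell into 25 different library patterns, and 23 are annotated as protein-coding. Beside those described here they were Gm26712, Mir8114, Zfp292, Rlim, Kirrel, Pttg1ip, Emp1, Usp46, Tnfaip1, Krcc1, Pogk, Ski, Gm8942, Golm1, Svbp, Rtn3, Ccdc71, Lrrc47, Pja1, Abl1 and Ctdsp2. Igf2, low in WT 6 and WT 7, was the highest in level. Zfp422, a zinc finger gene, was at 2.64, 20.4, 20.9, 2.25, 18.8, 19.8 and 2.16 FPKM. Eno1b, an enolase gene on chromosome 18 that is similar in sequence to Eno1, was at 2.57 and 2.80 FPKM in WT 1 and WT 3 and at 32.5 to 39.97 FPKM in the other 5. Rac1, a small GTPase of the cytoskeleton, was at 38.9 FPKM in WT 4 and 47.1 FPKM in WT 6, and at 8.83 to 12.3 FPKM in the other 5. Gm45717 on chromosome 7 was at 52.0, 55.9 and 43.4 FPKM in WT 2, WT 3 and WT 4 and listed at 0 in the other 4.

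**Figure D5:**
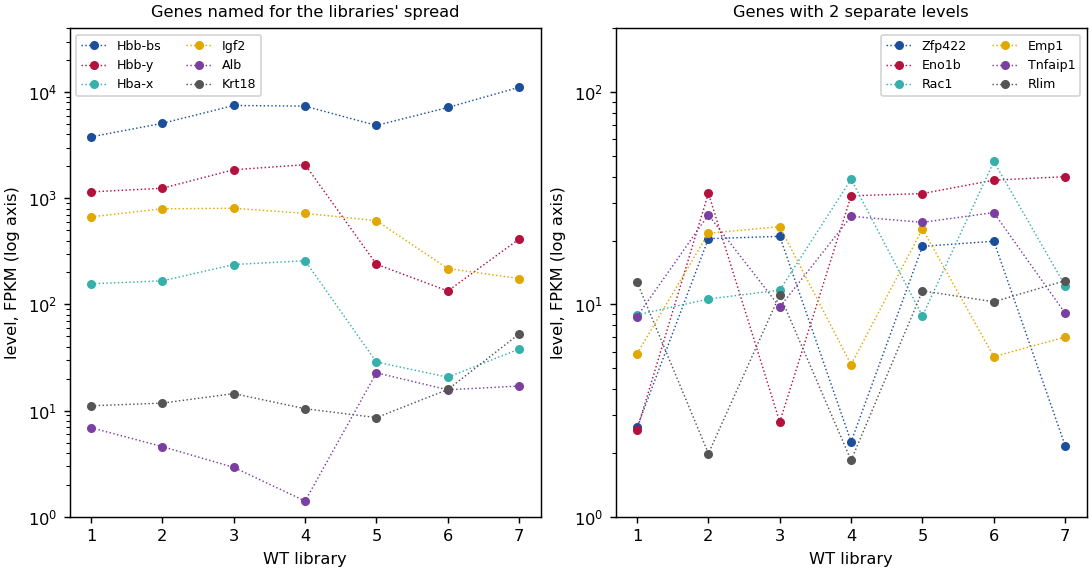
FPKM (vertical log axis) by WT library (horizontal axis), left for 6 genes named for their spread and right for 6 of the genes with 2 separate levels. Dotted lines only guide the eye, since the libraries have no order. Hbb-y is at 413 FPKM or less in WT 5, WT 6 and WT 7, and each gene on the right has its own set of high libraries.

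Xist, the RNA that coats the silenced X chromosome in female cells, and Ddx3y, a gene of the Y chromosome, were both above 1 FPKM in 4 libraries. Xist was at 51.2, 37.4, 52.0, 0.0333, 95.4, 0.120 and 56.2 FPKM in WT 1 to WT 7. Ddx3y was at 8.91, 7.09, 3.86, 15.2, 0.0393, 15.7 and 6.98 FPKM. WT 5 had Xist alone, WT 4 and WT 6 had Ddx3y alone, and WT 1, WT 2, WT 3 and WT 7 had both.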

How the data were processed

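RNA sequencing of 7 libraries of E14.5 WT hearts was analysed. Per the labels' protocols, TRIzol was used for total RNA and the VAHTS Universal V6 reagents for the libraries. Tools listed in the submitters' processing notes, without their roles, are DESeq2, fastp, HISAT2, HTSeq and R 3.2.0. The authors deposited FPKM per gene; the sources used here do not give the tool, build and annotation behind it. The 8 columns of other genotypes were not used. The members and lists were chosen with earlier results of these data known.

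Symbols, positions and lengths came from GENCODE vM21 (GRCm38), which matched 55154 of 55335 identifiers; 181 did not match. Promoters came from RefSeq (GRCm38.p6), and 6 are printed. Depth was implied from the low values of genes of at least 5000 bases; 53.1% to 60.8% of these were whole multiples of a step within 0.1 step, so whole reads were not recovered and no count model was used. Depth is therefore an estimate.

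Levels were set on log2(FPKM + 0.5), which understates ratios of low genes. Pairs were tested with an exact sign-flip permutation test (called at an adjusted p under 0.05); these p-values reflect only how the 7 libraries vary, which may be technical. Of the 34 pairs, 2 were tested and counted but are not reported here by name. Gene lists, detection and spread are descriptions without a test. Named genes were the 25 highest, both members of each pair, list members, the 5 highest non-coding genes, Xist and Ddx3y. Among protein-coding genes of at least 10 FPKM, the 10 most and 10 least variable were also named. The 10 genes at each end of the first component were taken from the same protein-coding genes. Genes with 2 separate levels were sought after the data were seen, and those named were chosen after their values were seen. The scripts were tested on simulated data. Python 3.11.15, numpy 2.4.6, pandas 2.3.3 and matplotlib 3.10.9 were used. Alternatives covered the pseudocount, filters, scaling, length weighting and leaving out each library.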

Additional observations from a re-analysis of the deposited data

Results flagged for a closer look

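Among 138 values examined (32 pair ratios, 32 list levels and 74 genes), 10 had 1 library far from the other 6, by a gap over range above the 95% critical value. Chance flags about 5% of values that were not chosen by their spread. Some of the genes, such as Gpx1 and Krt18, were named for their spread between libraries. The lists were chosen with earlier results of these data known. The 5% is therefore no measure for this count. WT 7 was the library apart in 6 of them. It was high for the thymus list (gap over range 0.942), the lymphoid and mast cell list (0.856), the brown fat and parathyroid list (0.72) and Krt18 (0.669). It was low for the working cardiomyocyte list (0.739) and for the calcium handling and excitation list (0.64, level 4.42 against 4.67 to 4.82). In the brown fat and parathyroid list, Pth was at 4.88 FPKM in WT 7 and listed at 0 in the others, and Ucp1 was at 0.025 FPKM or less in all libraries.

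WT 6 was apart for the Tnnc1/Tnnc2 ratio (0.645, log2 ratio 8.57 against 9.90 to 10.63), for the skeletal muscle list (0.57, level 0.75 against 0.29 to 0.48) and for the fatty acid oxidation list (0.607, level 4.73 against 4.401 to 4.53). Mylpf, the fast skeletal light chain, was at 10.5 FPKM in WT 6 and 3.11 to 5.14 FPKM in the others. WT 2 was apart for Gpx1, a glutathione peroxidase, at 15.4 FPKM against 88.0 to 153 FPKM (0.757).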

How the results depend on the processing

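Of the pair ratios recomputed under other pseudocounts and scalings and without each library, 372 kept their direction and their side of the threshold. Cox6a2/Cox6a1, not called in any setting, ran from -0.0167 (without WT 1) to 0.138 (without WT 7) when each library was left out. Myl2/Myl7 had an exact adjusted p of 0.0332 without WT 7 (0.36, against 0.27). WT 7 was the only library with Myl7 higher, so that p was fixed by leaving it out. Of the list levels, 310 moved by less than the spread between libraries and 74 by more. Without mitochondrially encoded genes, but with their chromosome 1 copies kept, the 10 highest genes held 24.4% and the 100 highest 42.3%. Without the copies alone, the 10 highest held 29.9% and the 100 highest 52.8%. Leaving out both was not done, so none of these is the share among the other genes. Weighted by exonic length, the 10 highest held 12.6% and the 100 highest 30.6%. Without each library in turn, lists with a range over 1 numbered 3 to 5. They numbered 6 at a pseudocount of 0.1 and 4 at a pseudocount of 1. With the FPKM of each library scaled to the same total they numbered 6, as with only members of at least 1 FPKM. The median SD was 0.0466 with no filter, since most genes are then near 0. Genes with 2 levels numbered 11 at a gap of 1.5 and 39 at a gap of 0.8, against 26. No paired analysis was possible because only 1 group, WT, was analysed. Low markers below about 0.1 FPKM rest on few fragments.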

Other observations

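Protein-coding genes held 81.5% ± 0.67 of the FPKM total, and 10850 of 21899 reached 1 FPKM in all 7 libraries. Processed pseudogenes held 3.41% ± 0.49, from 2.80% in WT 4 to 4.27% in WT 7, and 602 of 9938 reached 1 FPKM in all libraries. The SD between libraries had a median of 0.23 (log2) for 302 genes over 100 FPKM, 0.16 for 5184 genes of 5 to 20 FPKM and 0.18 for 6167 genes of 1 to 5 FPKM. Among the protein-coding genes of at least 10 FPKM that WT 7 set apart as high, Krt18, Cstb and Hspa8 had the widest gaps. These were named after their values were seen. Hspa8, a constitutive heat shock protein, was at 389 FPKM in WT 7 and 221 to 247 FPKM in the other 6.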
